A study of Mus musculus with 12 samples.

Results

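The genes described here are 9 genes of antigen presentation by major histocompatibility complex (MHC) class I, picked by symbol from the 28793 genes of the table. Each symbol matched 1 gene, and all 9 are listed for all 12 libraries. They are B2m, H2-K1, H2-D1 and H2-T23 (chains of class I molecules), Tap1, Tap2 and Tapbp (peptide transport and loading), Erap1 (peptide trimming) and Nlrc5 (a transcriptional activator of class I genes). Their RNA was measured in C57BL/6 mice, in the large intestine at an age of 3 months. The mice differed in Tert, the gene of the catalytic protein of telomerase, which extends chromosome ends.

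Of the 12 libraries, 6 came from GFP-sorted crypt cells, called stem or progenitor cells in the labels and crypt base columnar cells in the series description. Of these, 3 were Tert heterozygous and 3 were null for Tert at generation 3 (null G3). The other 6 held unsorted crypt epithelium: 2 Tert heterozygous, 2 null for Tert at generation 4 (null G4), and 2 of the same generation whose label says that telomerase was reactivated. No wild-type group was analysed here, and the heterozygous controls carry 1 altered Tert allele. The labels do not name the gene that drives GFP or the Tert lesion, and they do not spell out the means of reactivation. In the column headers the pair labelled reactivated is called G4tam, without an explanation of tam, and the heterozygous libraries are called G0. If tam stands for a treatment, it cannot be told apart from reactivation here. Replicates are called biological without naming animals, so p-values measure only the spread between these libraries.

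Class I molecules show short peptides from the cell's own proteins to CD8 T cells and natural killer cells. Proteasomes cut the proteins, the transporter of Tap1 and Tap2 moves the peptides into the endoplasmic reticulum, and the aminopeptidase Erap1 trims them there. Tapasin, the product of Tapbp, bridges the transporter and an empty heavy chain bound to beta-2 microglobulin until a peptide fits. Interferon gamma raises most of these genes in part through the transcription factor Irf1. Nlrc5 is brought to class I promoters by proteins that bind short promoter elements, among them the X2 site TGACG and the Y box ATTGG. Intestinal epithelial cells carry class I molecules, as most nucleated cells do.

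On chromosome 17, in or beside the mouse MHC, lie 6 of the members. In GRCm38 (the same build as mm10), with the GENCODE M21 annotation, they are Tapbp (33915899 to 33929292, plus strand), H2-K1 (33996017 to 34000347, minus), Tap1 (34187553 to 34197225, plus), Tap2 (34203527 to 34216321, plus), H2-D1 (35262730 to 35267499, plus) and H2-T23 (36029773 to 36032855, minus). B2m lies on chromosome 2 (122147686 to 122153083, plus), Nlrc5 on chromosome 8 (94434356 to 94527272, plus) and Erap1 on chromosome 13 (74639568 to 74693201, plus). Tap1 and the immunoproteasome gene Psmb9 lie head to head: their RefSeq starts are 226 bases apart, and their exons overlap by 212 bases on opposite strands. Exons of Erap1 and Cast overlap by 834 bases on opposite strands, and those of Tapbp and Zbtb22 by 149 bases on the same strand. The strand setting of the counting is not given in the sources used here, so reads in these overlaps cannot be assigned with certainty. H2-K1, H2-D1, H2-T23 and the H2-Q and H2-T genes are close relatives, and how reads that match several of them were counted is not given either, so their single values are uncertain.

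Promoter sequences were found for 7 members, B2m, H2-K1, H2-D1, H2-T23, Tap1, Tapbp and Erap1, in a RefSeq table for GRCm38.p6. The 250 bases before the start are shown for 4 of them, a light chain, both classical heavy chains and a transporter gene. These 4 are the members with a match to the X2 site TGACG, and H2-T23, Tapbp and Erap1, not shown, have none. The choice does not follow the pattern in crypts, where the members not shown moved with the others too (Pearson r of 0.970, 0.996 and 0.950 with the mean of the other members). Capitals mark, on either strand, the X2 site TGACG, the Y box ATTGG, the motif GAAANNGAAA (the core of the interferon-stimulated response element, where N is any base), or GAANNGAAA, a form of that core with 1 base fewer. They lie at chr2:122147437-122147686 (plus strand), chr17:34000348-34000597 (minus), chr17:35262844-35263093 (plus) and chr17:34187306-34187555 (plus), in the order printed, and are written 5′ to 3′ on the gene's strand.
B2m: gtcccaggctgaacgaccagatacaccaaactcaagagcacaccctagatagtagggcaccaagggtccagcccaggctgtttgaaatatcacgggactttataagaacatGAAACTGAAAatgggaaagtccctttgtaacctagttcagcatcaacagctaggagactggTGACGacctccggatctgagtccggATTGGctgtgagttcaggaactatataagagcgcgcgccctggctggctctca
H2-K1: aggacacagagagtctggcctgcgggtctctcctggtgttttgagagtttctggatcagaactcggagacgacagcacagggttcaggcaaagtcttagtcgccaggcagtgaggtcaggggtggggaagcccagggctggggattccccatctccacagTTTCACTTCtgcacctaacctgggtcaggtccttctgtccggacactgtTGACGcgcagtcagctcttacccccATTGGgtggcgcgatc
H2-D1: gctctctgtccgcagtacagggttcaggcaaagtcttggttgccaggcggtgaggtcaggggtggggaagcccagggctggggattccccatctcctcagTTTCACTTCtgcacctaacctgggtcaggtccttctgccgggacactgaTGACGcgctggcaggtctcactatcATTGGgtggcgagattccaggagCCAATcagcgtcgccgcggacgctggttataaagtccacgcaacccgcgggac
Tap1: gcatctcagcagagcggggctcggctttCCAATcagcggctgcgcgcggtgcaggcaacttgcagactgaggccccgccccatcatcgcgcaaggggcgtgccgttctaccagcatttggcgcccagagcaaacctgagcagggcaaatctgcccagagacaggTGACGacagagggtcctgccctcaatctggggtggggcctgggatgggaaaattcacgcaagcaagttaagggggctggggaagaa

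TGACG followed by 20 bases and ATTGG was present in B2m, H2-K1 and H2-D1, and in 30 of 32851 promoters of the table (0.0913%). This spacing was chosen after the matches were seen. Singly, TGACG was present in 4 of the 7 members (B2m, H2-K1, H2-D1, Tap1) against 17.8% of all promoters. ATTGG was in 6, in all but Erap1, against 33.8%. GAAANNGAAA was in B2m and H2-T23, against 2.98% of promoters, and its shorter form GAANNGAAA in H2-K1 and H2-D1, against 6.31%. The longer motif was added after the promoters had been seen. Searched the same way, the gamma-activated site TTCNNNGAA was in 0 of the 7 members against 7.02% of promoters. The NF-kB motif GGGNNNNNCC was in the 4 genes shown against 45.8%, and it was not capitalised. Over the 190 bases that can be aligned, the H2-K1 and H2-D1 promoters share 166 (87.4%). A match is a stretch of letters and was not measured as a bound site in these data.

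The labels were checked against marker genes. Tert was at 0.0424 to 0.169 RPKM in sorted heterozygous libraries and 0, 0.0787 and 0.00131 in those labelled null G3. The null G3 library with 0.0787, replicate 2, lay above 2 of the 3 heterozygous ones, so Tert RNA does not separate the sorted groups. The name null G3, like reactivated, therefore stands for a label here. In unsorted crypts it was 0.251 and 0.459 in heterozygous libraries, 0.00778 and 0.0377 in null G4, with 0.0171 and 0.0311 for the pair labelled reactivated, inside the range of the null G4 values. The epithelial marker Epcam was at 134 RPKM or more in every library. The stem cell marker Lgr5 was 3.40 to 4.74 RPKM in 5 sorted libraries and 0.121 in the library labelled null G3 replicate 1. That library stood apart: its correlation with the other null G3 libraries was 0.693 and 0.707, against 0.963 to 0.972 for the other 4 pairs within sorted groups, and small intestinal enterocyte genes summed to 5510 RPKM there. RPKM divides reads by gene length and by the library's total, so it shares out a fixed sum, and mitochondrially encoded genes took unequal parts of it. They made up 22.7% and 32.5% of summed RPKM in unsorted heterozygous libraries, 13.5% to 19.4% in the other unsorted ones, and 41.8% to 77.1% in sorted ones. Implied depth was 74700000 to 103000000 reads per unsorted library. Even Tap2 and Nlrc5 thus rested there on about 625 and 627 reads at the least.

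In every library the order of RPKM began with B2m, then H2-K1, then H2-D1. H2-T23, Tapbp and Erap1 took places 4 to 6, Tap1 place 7, and Tap2 and Nlrc5 the last places. The neighbours H2-T23 and Tapbp changed places between libraries, and their group means differed by less than the SD in all 3 unsorted groups. Levels of sorted and unsorted libraries are set side by side below only, because the sets appear to have been normalized separately, and no level was tested across them.

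Among the chains, B2m, the light chain shared by nearly all class I molecules, was 82.1 and 201 RPKM in unsorted heterozygous crypts. It was 458 and 541 RPKM in null G4 and 528 and 395 in the crypts labelled reactivated. In sorted cells B2m was 805, 908 and 709 RPKM in heterozygous libraries, against 1084, 883 and 702 in libraries labelled null G3. The heterozygous crypts were the lowest of all groups and disagreed most with each other, while the sorted groups overlapped. H2-K1, a classical heavy chain that presents peptides to CD8 T cells, was 79.7 and 114 RPKM in heterozygous crypts, 265 and 305 in null G4, with 319 and 247 for the pair labelled reactivated. Its sorted values were 131, 181 and 116 RPKM in heterozygous libraries, against 91.5, 80.2 and 123 in null G3. Both groups of generation 4 crypts lay above both heterozygous libraries, as did 74.7% (null G4) and 46.7% (reactivated) of all tested genes. In sorted cells the ranges of H2-K1 overlapped.

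H2-D1, the other classical heavy chain, was 71.1 and 96.2 RPKM in heterozygous crypts, 206 and 253 in null G4, with 254 and 201 for the pair labelled reactivated. In sorted cells it was 93.6, 114 and 75.8 RPKM in heterozygous libraries, against 56.7, 58.9 and 83.9 in null G3. H2-D1 therefore ordered the libraries much as H2-K1 did, with sorted groups that overlapped. H2-T23 encodes Qa-1, a nonclassical chain that presents leader peptides of other class I chains to natural killer cell receptors. It was 21.7 and 30.9 RPKM in heterozygous crypts, 41.3 and 48.1 in null G4, with 52.7 and 41.4 for the pair labelled reactivated. Sorted libraries held 11.3, 17.1 and 10.7 RPKM of it when heterozygous, against 12.6, 5.68 and 9.29 in null G3, again with overlap.

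Among the transport and loading genes, Tap1 was 3.12 and 3.69 RPKM in heterozygous crypts, 17.0 and 20.2 in null G4, with 21.6 and 16.2 for the pair labelled reactivated. In sorted cells Tap1 was 3.05, 4.44 and 2.83 RPKM in heterozygous libraries, against 2.07, 2.45 and 2.09 in null G3. It is 1 of 2 members whose null G3 values all lay below the heterozygous ones, as did those of 12.6% of tested genes. Its partner Tap2 was 1.89 and 2.08 RPKM in heterozygous crypts, 6.59 and 7.79 in null G4, with 7.79 and 6.64 for the pair labelled reactivated. Every sorted library had Tap2 at 0.174 to 0.488 RPKM, below the level at which genes were tested. Tapbp was 22.1 and 27.9 RPKM in heterozygous crypts, 42.3 and 47.4 in null G4, with 49.8 and 42.1 for the pair labelled reactivated. Sorted libraries had Tapbp at 9.65 to 12.2 RPKM in heterozygous and 9.13 to 11.0 in null G3, which overlapped.

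The trimming peptidase Erap1 was 10.8 and 12.5 RPKM in heterozygous crypts, 23.4 and 27.3 in null G4, with 26.1 and 16.9 for the pair labelled reactivated. In sorted cells it was 12.3 to 14.1 RPKM in heterozygous libraries, and 5.89, 13.1 and 13.0 in null G3, so that only replicate 1, the library that stood apart, was low. Nlrc5, the activator, was 0.845 and 1.07 RPKM in heterozygous crypts, 6.11 and 5.52 in null G4, with 7.08 and 4.75 for the pair labelled reactivated. Its sorted values were 0.460, 0.836 and 0.635 RPKM in heterozygous libraries, against 0.0474, 0.308 and 0.390 in null G3. Nlrc5 was thus low in sorted cells and in heterozygous crypts. It is the other member whose null G3 values all lay below the heterozygous ones, as did those of 12.6% of tested genes. In bulk RNA, fewer cells that express a gene and less of its RNA per cell cannot be told apart.

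**Figure D1:**
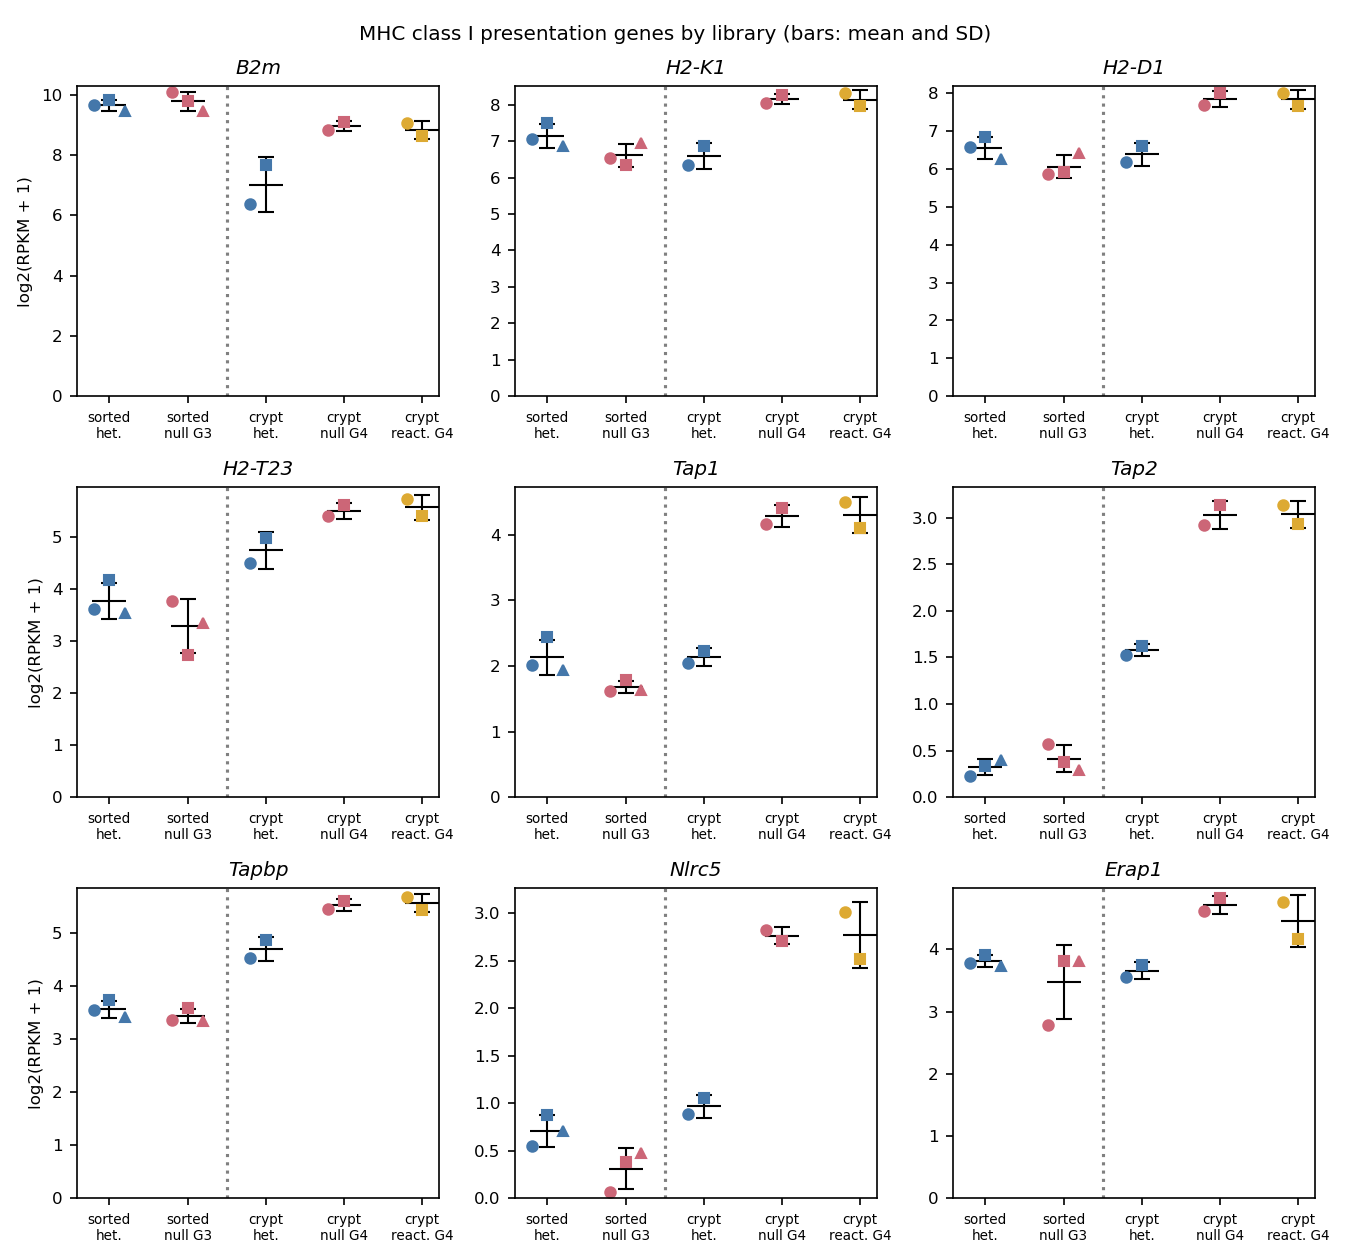
RPKM of the 9 genes on the log2(RPKM + 1) scale in each library, with group means and SDs as bars. Circles, squares and triangles are replicates 1, 2 and 3. The dotted line parts sorted from unsorted libraries, which appear to have been normalized separately. In unsorted crypts all null G4 and reactivated points lie above both heterozygous points for every gene, as do those of 74.7% (null G4) and 46.7% (reactivated) of all tested genes. The sorted groups overlap except for Tap1 and Nlrc5, whose null G3 points lie below, as do those of 12.6% of tested genes.

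The comparison of null G4 with heterozygous crypts asks how late-generation loss of telomerase goes with gene expression in the whole epithelium. In it 7 of the 9 members rose, at an adjusted p under 0.05 (limma on log2(RPKM + 1), Benjamini-Hochberg over 11464 genes, n = 2 per group). Of all tested genes 4.97% rose. The transporter genes, the activator, the light chain, both classical heavy chains and Erap1 were those that rose. By ratio of mean RPKM, Nlrc5 was 6.06-fold higher, Tap1 5.46-fold, Tap2 3.62-fold, B2m 3.53-fold, H2-K1 2.94-fold, H2-D1 2.75-fold and Erap1 2.18-fold. The median log2 difference over the members was 1.45, beside 0.36 over all tested genes.

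On the log2(RPKM + 1) scale, which understates the change of a gene as low as Nlrc5, the largest difference was that of Tap1, 2.15 (SE 0.20, adjusted p = 0.00124). Nlrc5 differed by 1.80 (SE 0.19, adjusted p = 0.00209) and Tap2 by 1.45 (SE 0.16, adjusted p = 0.00269). The differences of the chains were less certain. B2m had 1.95 (SE 0.41, adjusted p = 0.0395), H2-K1 1.56 (SE 0.28, adjusted p = 0.0258) and H2-D1 1.45 (SE 0.27, adjusted p = 0.0302). Erap1 had 1.06 (SE 0.24, adjusted p = 0.0450). The 2 members that missed the threshold were Tapbp at 0.82 (adjusted p = 0.0547) and H2-T23 at 0.76 (adjusted p = 0.0670), with ratios of 1.79 and 1.70. For all 9 members both null G4 values exceeded both heterozygous values, but so did those of 74.7% of all tested genes, which shows how far the heterozygous libraries lay below the others as a whole.

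That shift and the sex of the libraries both bear on these calls. Quantile normalization, which gives all libraries the same distribution of values, moved the all-gene median to 0.016 and left 5 of the 9 members passing: Tap1 (1.75), Nlrc5 (1.55), Tap2 (1.14), H2-K1 (1.13) and H2-D1 (1.03). B2m, at 1.63, and Erap1, at 0.56, no longer passed (adjusted p = 0.0663 and 0.0886). Over all tested genes, 135 rose (1.18%) and 102 fell with quantile normalization and 147 and 175 with median scaling, against 570 and 66 on the deposited scale. Without mitochondrially encoded genes in the total, the same 5 passed. Single libraries also decided calls, in fits that leave 1 library in a group and are weak for that reason. Without heterozygous replicate 1, and without null G4 replicate 2, only Tap1, Tap2 and Nlrc5 passed. Without null G4 replicate 1 B2m joined them, and without heterozygous replicate 2 Erap1 alone was lost. Both heterozygous crypt libraries expressed Y-linked genes and both null G4 libraries expressed Xist, so sex and null G4 cannot be told apart within this comparison. With a term for sex, which rests on the pair labelled reactivated, 1 of each sex, 0 of the 9 passed, while all 9 differences remained positive. They were 1.76 for Tap1 (adjusted p = 0.0565), 1.31 for Nlrc5 (0.0538), 1.25 for Tap2 (0.0698) and 0.42 to 1.53 for the other 6 (0.442 or more). With that term, 0.515% of all tested genes rose (59).

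A comparison within 1 sex was possible through the library labelled reactivated replicate 2, which was male like both heterozygous libraries. Nlrc5 there was 4.42-fold higher than in the higher heterozygous library, Tap1 4.40-fold, Tap2 3.19-fold, H2-K1 2.15-fold, H2-D1 2.09-fold, B2m 1.97-fold, Tapbp 1.51-fold, Erap1 1.35-fold and H2-T23 1.34-fold. Of all tested genes, 50.5% lay above both heterozygous libraries there. In the fit without the female library labelled reactivated, Nlrc5 (1.55, adjusted p = 0.00774), Tap1 (1.97, adjusted p = 0.00905) and Tap2 (1.36, adjusted p = 0.0157) passed, where 0.91% of all tested genes rose. This fit rests on 1 male library against 2 and takes its spread from the other groups. H2-K1 at 1.36 and B2m at 1.61 did not pass (adjusted p = 0.162 and 0.303).

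**Figure D2:**
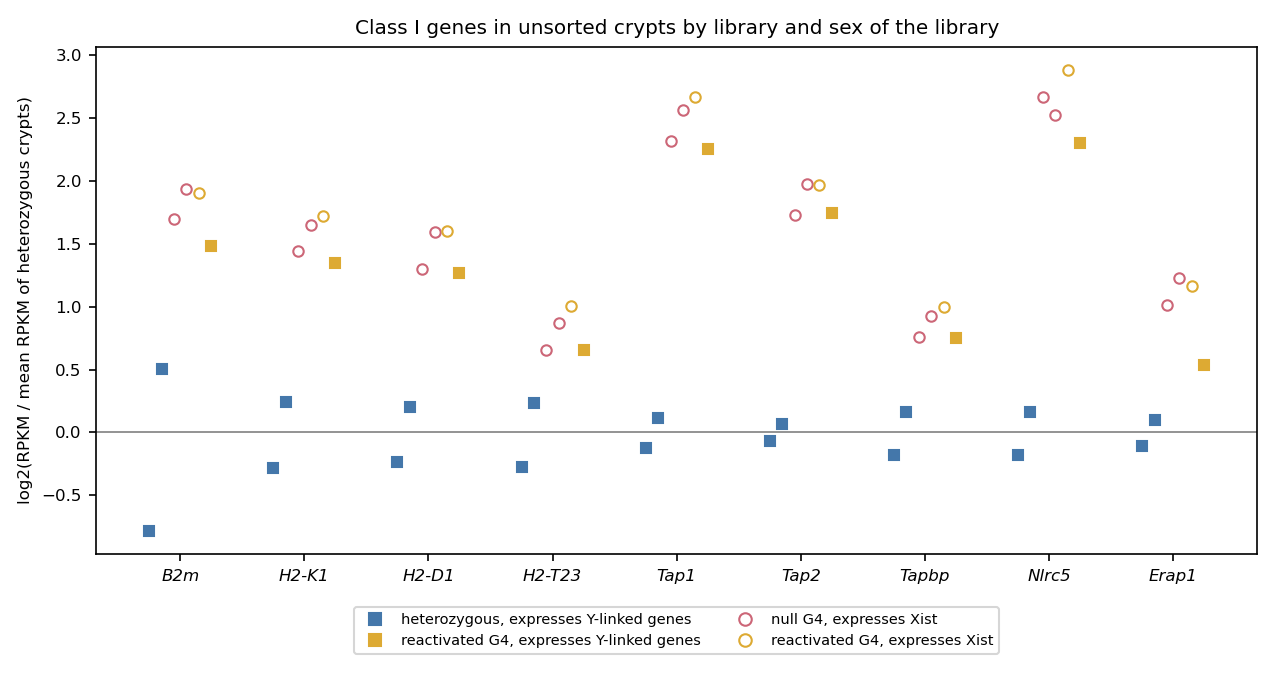
RPKM of each member in each unsorted library divided by the mean of the 2 heterozygous libraries, as log2; filled squares express Y-linked genes, open circles express Xist, and colours mark the groups. The male library labelled reactivated (filled yellow square) lies above both heterozygous libraries, all male, for all 9 genes and is the lower of its pair.

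Crypts labelled reactivated were compared with null G4 crypts, the question being whether restored telomerase goes with a return of expression. None of the members passed, and 0.0262% of all tested genes did in either direction (3 of 11464, with 310 at an unadjusted p under 0.05). The members' differences ran from -0.26 for Erap1 to 0.07 for H2-T23, and the all-gene median was -0.14. Ratios of mean RPKM were 0.848 for Erap1, 0.925 for B2m and 0.992 to 1.05 for the other 7. The 95% interval of the log2 difference was -0.44 to 0.47 for Tap1, -0.36 to 0.37 for Tap2 and -0.43 to 0.43 for Nlrc5. On the deposited scale, these intervals do not reach a fall as large as each gene's difference between null G4 and heterozygous crypts. The interval of B2m was wider, -1.06 to 0.81. Tert RNA did not separate these libraries from null G4, so the direction drawn here rests on their label.

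Against heterozygous crypts, with which the previous comparisons share libraries, 5 of the 9 members rose in the crypts labelled reactivated and 1.13% of all tested genes did. They were Tap1 (2.17, SE 0.20, adjusted p = 0.00154), Nlrc5 (1.80, SE 0.19, adjusted p = 0.00278), Tap2 (1.46, SE 0.16, adjusted p = 0.0035), H2-K1 (1.54, SE 0.28, adjusted p = 0.0437) and H2-D1 (1.44, SE 0.27, adjusted p = 0.0496). B2m had 1.82 (adjusted p = 0.0989), and H2-T23, Tapbp and Erap1 had 0.83, 0.86 and 0.81. All 9 members lay above both heterozygous libraries, as did 46.7% of all tested genes. Since both heterozygous libraries were male, a term for sex reduces this comparison to the 1 male library described above and adds no check to it.

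Sorted crypt cells give the comparison of null G3 with heterozygous mice in the stem and progenitor fraction. The groups were not balanced for sex. Every sorted heterozygous library expressed Xist, as did null G3 replicates 1 and 3, while null G3 replicate 2 expressed Y-linked genes. With a term for sex 0 members passed as well. Of the 7 members that could be tested 0 passed, as did 0% of all 8734 tested genes (143 at an unadjusted p under 0.05, limma, n = 3 per group); Tap2 and Nlrc5 were below 1 RPKM in too many libraries. H2-K1 had a difference of -0.53 (95% interval -1.53 to 0.48), H2-D1 -0.50 (-1.48 to 0.48), H2-T23 -0.49 (-1.43 to 0.45) and Tap1 -0.46 (-1.14 to 0.23). Tapbp had -0.13, Erap1 -0.34 and B2m 0.13, with intervals that include 0 as well. The median over the 7, -0.46, was that of all tested genes, also -0.46. Tap1 and Nlrc5 values that all lay below the heterozygous ones stand beside 12.6% of tested genes with the same pattern. On the deposited scale, the upper limits for Tap1, H2-K1, H2-D1 and H2-T23 lay below their null G4 differences. Those differences have errors of their own. Of these genes only Tap1 passed the test of the difference between the null effects, given below. Without mitochondrially encoded genes in the total, H2-K1 turned to 0.073, H2-D1 to 0.096, H2-T23 to 0.066 and Tap1 to 0.0027. Without the library labelled null G3 replicate 1, 0 members passed, and Tap1 had -0.43, H2-T23 -0.73 and Erap1 0.0028.

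The null effect in sorted cells minus that in crypts was tested across all 12 libraries. This difference compares generation 3 with generation 4 and the sorted with the unsorted fraction at once, and these cannot be told apart. It passed for Tap1 (-2.61, SE 0.35, adjusted p = 0.0103) and Nlrc5 (-2.20, SE 0.30, adjusted p = 0.0103), beside 0.303% of all tested genes. Nlrc5 entered this test only through the generation 4 crypts, where it was high. Every sorted library had it at 0.836 RPKM or less, too low for the sorted test, so its call is not independent of its crypt values. All 9 differences were negative, and the all-gene median was -0.73. H2-K1 (-2.09), H2-D1 (-1.96), B2m (-1.82), Erap1 (-1.40), Tap2 (-1.36), H2-T23 (-1.25) and Tapbp (-0.96) did not pass. Without any 1 of the 4 heterozygous or null G4 crypt libraries neither gene passed (adjusted p = 0.0622 to 0.121), nor with the sex term (0.230 for Tap1 and 0.258 for Nlrc5).

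**Figure D3:**
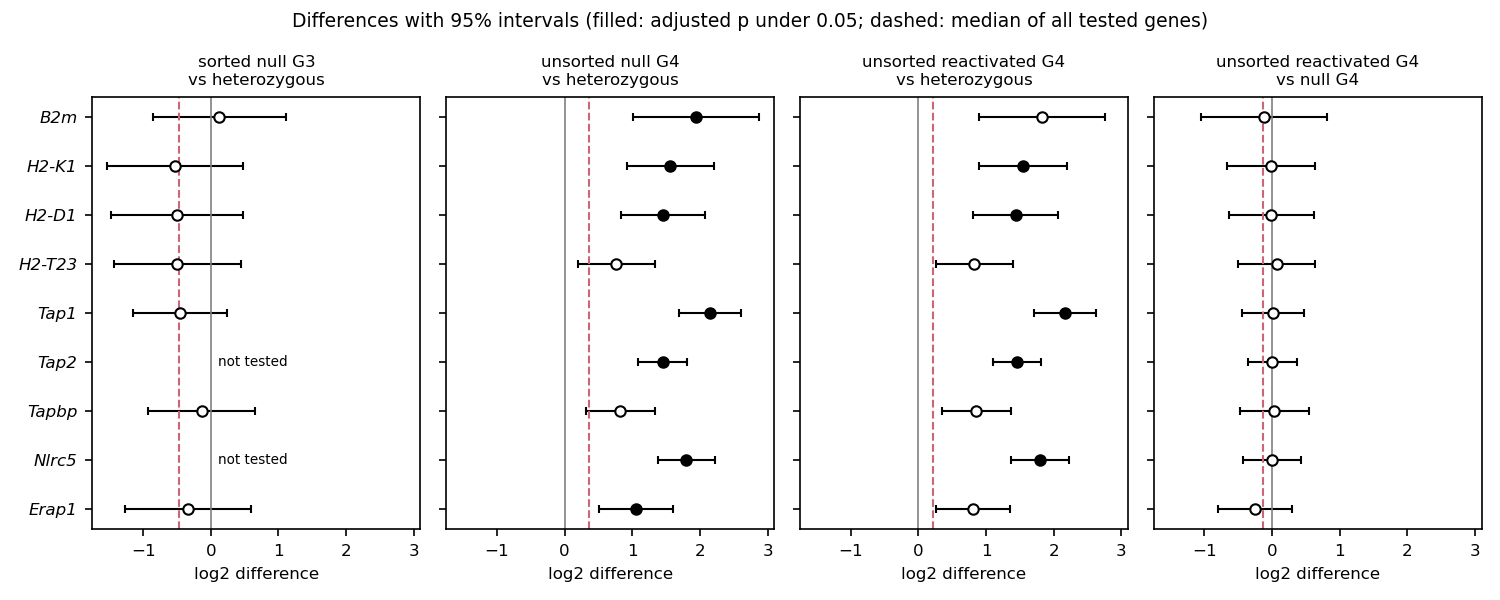
Log2 differences on the log2(RPKM + 1) scale with 95% intervals for the 9 genes in 4 comparisons; filled points have an adjusted p under 0.05 and the dashed line is the median of all tested genes. In both comparisons of generation 4 with heterozygous crypts every point is right of the dashed line, whereas the sorted points lie around it and those of reactivated against null G4 lie around 0.

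Ratios between members of 1 library do not depend on its scaling. B2m over the sum of H2-K1 and H2-D1, in RPKM, was 0.883 to 0.973 in 5 of the 6 crypt libraries and 0.544 in heterozygous replicate 1. In sorted cells it was 3.08 to 3.70 in heterozygous libraries and 7.32, 6.35 and 3.38 in null G3. B2m thus exceeded the sum of these heavy chains in every sorted library and lay below it in every crypt library. Any difference between the sets in gene lengths or in counting would not cancel in such ratios, and this contrast between the sets was not tested. Tap1 over Tap2 was 1.65 and 1.77 in heterozygous crypts and 2.45 to 2.77 in the other 4. In sorted libraries, where Tap2 was 0.488 RPKM or less, it was 4.24 to 17.6. Tapbp over Tap1 was 7.09 and 7.57 in heterozygous crypts against 2.31 to 2.59 in the others. Tap1 thus differed more than either of its partners, without overlap between heterozygous and generation 4 crypts. H2-K1 over H2-D1 stayed between 1.12 and 1.61 in all 12 libraries.

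**Figure D4:**
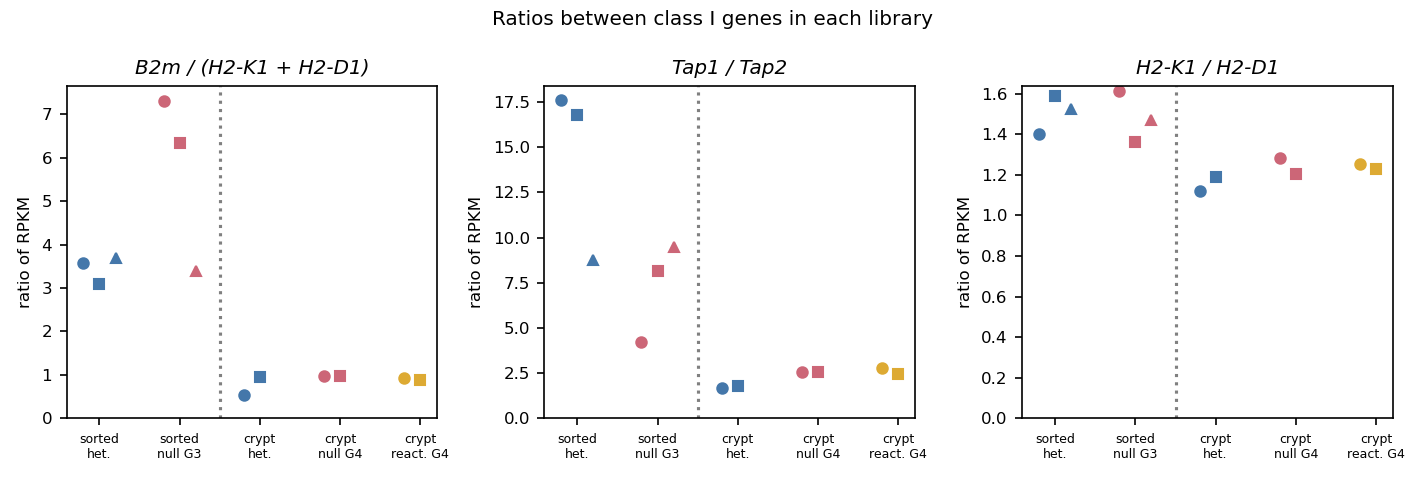
Ratios of RPKM between class I genes in each library; circles, squares and triangles are replicates 1, 2 and 3, and the dotted line parts sorted from unsorted libraries. B2m relative to H2-K1 plus H2-D1 is 3.08 or more in all sorted and 0.973 or less in all crypt libraries, and Tap1 relative to Tap2 is lowest in heterozygous crypts. No ratio was tested across the sets, which appear to have been normalized separately.

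Other genes of the pathway were counted by list in null G4 against heterozygous crypts, where 4.97% of all genes rose. Of 7 tested genes of the immunoproteasome, the inducible form that cuts peptides suited to class I, and its activator, 4 rose. Psmb8 was 2.70 and 4.24 RPKM in heterozygous crypts against 26.3 and 32.5 in null G4, which is 2.78 higher on the log2 scale (SE 0.25, adjusted p = 0.00104). Psmb9, the neighbour of Tap1, was 2.01 and 2.83 against 15.2 and 17.6 RPKM (2.35, SE 0.22, adjusted p = 0.00128). Psmb10 rose by 1.29 and the activator subunit Psme1 by 1.07. The 3 constitutive subunits that these replace, Psmb5, Psmb6 and Psmb7, had 0.71, 0.75 and 0.97 and did not pass (adjusted p = 0.0584 to 0.0686); the difference between the lists was not tested.

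Of 16 tested other class I chains 7 rose. They were H2-Q6 (2.81), H2-Q7 (2.52), H2-Q5 (1.82), H2-Q4 (1.65), H2-M3 (1.03), H2-T22 (1.01) and H2-T10 (0.93). H2-Q6 and H2-Q7 belong to the Qa-2 group of nonclassical chains, and H2-M3 presents formylated bacterial and mitochondrial peptides. H2-Q6 went from 1.53 and 2.88 RPKM in heterozygous to 20.4 and 21.6 in null G4 crypts. Of 10 loading factors and chaperones of the endoplasmic reticulum 3 rose: Tapbpl, a tapasin relative that edits peptides (1.16), Hsp90b1 (1.31) and calreticulin, Calr (1.40, adjusted p = 0.0498). Calnexin, Canx (1.10), and Pdia3 (1.02), which assist heavy chain folding and loading, had adjusted p of 0.0507 and 0.0526. Of 9 other peptidases 1 rose, the interferon-inducible leucine aminopeptidase Lap3 (1.43).

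Of 22 factors that act at class I promoters 4 rose, among them Ciita, Irf1 and Stat3. Ciita, the class II counterpart of Nlrc5, was 0.476 and 0.558 RPKM in heterozygous crypts against 7.23 and 7.53 in null G4 (2.47, SE 0.15, adjusted p = 0.000124). Both heterozygous values were under 1 RPKM, so Ciita entered the test, and this count, only through the generation 4 crypts where it was high. Irf1 rose by 1.26 and Stat3 by 0.85. Rfx5, the X box protein through which Nlrc5 and Ciita are held at promoters, had 0.19 (adjusted p = 0.317), and with median scaling or the sex term its sign turned (-0.17 and -0.017). The medians of the promoter factors, 0.39, and of all tested genes, 0.36, were close. Of 11 interferon ligands, receptors and their regulators 1 rose, the feedback inhibitor Socs3 (1.50). Interferon gamma itself, Ifng, was 0 to 0.121 RPKM in the 6 crypt libraries. Of ligands of killer and T cell receptors 1 could be tested, Icam1, and it did not pass (0.68, adjusted p = 0.0690).

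In crypts labelled reactivated against null G4, 0 genes passed in any of these lists. Against heterozygous crypts, where 1.13% of all tested genes rose, 2 of 7 immunoproteasome genes rose (Psmb8 2.61, Psmb9 2.23), 5 of 16 other chains, 3 of 22 promoter factors (among them Ciita at 2.47 and Irf1 at 1.14), and 0 of 10 chaperones. The sorted comparison, in which no gene at all passed, gives no reading of these lists. With quantile normalization (1.18% of all tested genes) 3 of the 7 immunoproteasome genes, 6 of the 16 chains, 1 of the 10 chaperones and 3 of the 22 promoter factors rose in null G4 crypts. With the sex term (0.515%) these counts were 0, 0, 0 and 1. Leaving out 1 heterozygous or null G4 library gave 2 to 4 immunoproteasome genes, 4 to 5 chains, 0 to 1 chaperones and 1 to 3 promoter factors.

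**Figure D5:**
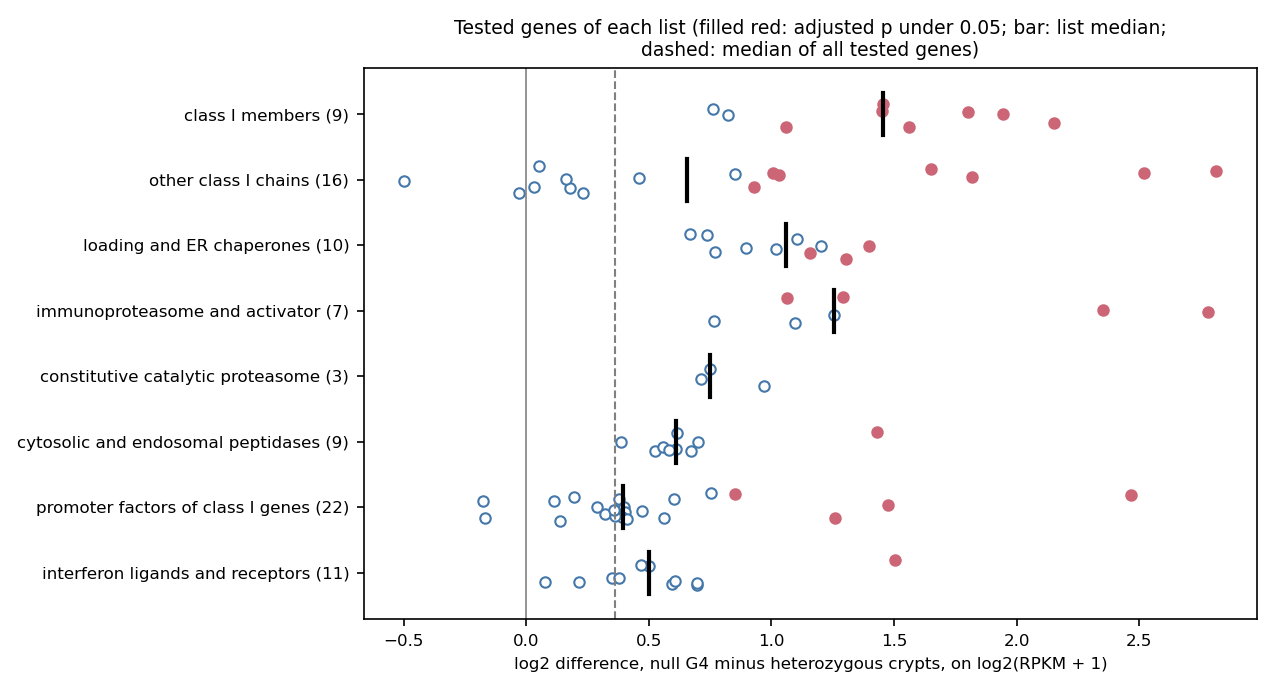
Log2 differences between null G4 and heterozygous crypts for each tested gene of the lists, with the number of tested genes in brackets; red points have an adjusted p under 0.05, black bars are list medians and the dashed line is the median of all tested genes. The list of killer and T cell receptor ligands, with 1 tested gene, is not drawn; no point left of 0 passed, and the constitutive proteasome has no red point.

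Leukocytes carry much class I RNA, so markers of other cells are given beside these results. The 12 T cell markers summed to 6.84 and 18.8 RPKM in heterozygous crypts, 9.16 and 9.62 in null G4, with 3.17 to 8.25 for the pair labelled reactivated, and 0 of the 5 tested changed in null G4. Cd4 was under 0.1 RPKM in every unsorted library. The 6 pan-leukocyte markers summed to 3.78 to 8.34, 3.86 to 4.81 and 2.51 to 4.72 RPKM in the same order, with 0 of 3 changed. Of 10 macrophage markers, which summed to 3.13 to 4.26, 3.76 to 3.83 and 2.66 to 4.16 RPKM, 2 were tested and the complement gene C1qa fell by 1.00 (adjusted p = 0.0498). Dendritic cell markers summed to 0.250 and 0.344 RPKM in heterozygous crypts, to 0.593 and 0.434 in null G4 and to 0.401 and 0.173 in the pair labelled reactivated. Those of B and plasma cells summed to 0.827 and 1.23, 1.58 and 1.59, and 1.77 and 1.46 RPKM in the same order. No marker of these 2 lists reached the level for testing. Fibroblast markers summed to 0.643 to 1.07 RPKM in heterozygous, 2.06 to 2.68 in null G4, with 0.399 to 1.65 for the pair labelled reactivated, and endothelial markers to at most 0.419. The pan-leukocyte, T cell and macrophage sums of null G4 thus lay within the heterozygous range, and the dendritic, B and plasma cell, and fibroblast sums above it. Epithelial markers summed to 1538 and 1995 RPKM in heterozygous crypts, to 2572 and 3180 in null G4 and to 2628 and 2869 in the pair labelled reactivated, with 0 of 7 passing in null G4. Goblet cell markers, 10 table entries of 8 symbols, had a median difference of -0.07 in null G4 against 0.36 over all genes, and Clca3 and Fcgbp fell by 2.49 and 1.17. The 7 tested small intestinal enterocyte genes had a median of -1.23 with all values negative, and Rbp2 fell by 1.85. In sorted null G3 cells the medians were -1.56 for goblet, 2.34 for small intestinal enterocyte and -0.89 for stem cell markers, with none passing. Null G3 replicate 1, the library that stood apart, weighed heavily in these medians. Enterocyte genes summed to 5510 RPKM in it, 86.4 and 125 in replicates 2 and 3, and 92.1 to 132 in heterozygous libraries. Goblet sums were 119, 1620 and 1919 RPKM against 1841 to 3221. Stem cell sums were 7.44, 130 and 184 RPKM against 152 to 183. The B and plasma cell sum and the epithelial sum were, like the members, higher in all 4 generation 4 libraries than in both heterozygous ones. The dendritic, fibroblast and stem cell sums were higher in null G4 but not in both libraries labelled reactivated. Stem cell sums were 114 and 106 RPKM in heterozygous crypts, 142 and 153 in null G4, and 155 and 112 in the pair labelled reactivated. Surface colonocyte sums were 1006 and 3398, 1369 and 1644, and 1406 and 1415 RPKM in the same order. The heterozygous libraries thus disagreed most in these, and the generation 4 sums lay between them. The part of these cells in the result was not tested.

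The members moved together across crypt libraries: each had a Pearson r of 0.950 to 0.999 with the mean of the other 8 over the 6 unsorted libraries. These points share their libraries and largely reflect the split of heterozygous from generation 4 crypts, so no p is given. Outside the members, the 10 genes most like their mean, by r over the same 6 libraries, were Irgm2, Slc12a7, Il17rc, Acnat1, Cd200r2, Rep15, H2-T22, Ly75, H2-Q6 and Plcl2, with r of 0.997 to 0.999. Irgm2, an interferon-inducible GTPase, was 2.98 and 4.47 RPKM in heterozygous crypts, against 12.6 and 14.1 in null G4, with 15.0 and 11.5 for the pair labelled reactivated. Likeness of pattern did not require a large change: Slc12a7, a potassium chloride cotransporter, was 13.0 and 13.5 RPKM in heterozygous crypts and 14.6 to 15.1 in the other 4. Of the 10, Irgm2, Cd200r2, H2-T22, Ly75 and H2-Q6 rose in null G4 against heterozygous crypts.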

How the data were processed

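RNA was prepared from 1 ug with the TruSeq kit, per the labels' protocols. STAR 2.3.0e and the build mm10 are named, per the submitters' processing notes, without a role. The sources used here do not give the annotation, the counting tool or the strand setting. The authors deposited RPKM values in 1 table of 28793 genes by 12 libraries. The table lists 25686 genes for sorted and 27658 for unsorted libraries, so the sets appear to have been normalized separately. Gene identifiers matched GENCODE M21 in 98.0% of cases.

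Values were tested as log2(RPKM + 1). A gene entered the test when 3 sorted or 2 unsorted libraries had it at 1 RPKM or above. Genes such as Nlrc5, Ciita and H2-Q7 were under 1 RPKM in unsorted heterozygous replicate 1. They therefore entered through the generation 4 crypts, where they were high, so their calls are not independent of that filter. limma 3.58.1 was run in R 4.3.3 (two-sided moderated test, spread trended on mean level, Benjamini-Hochberg over all tested genes of a comparison), with a threshold on the adjusted p of 0.05. The sorted libraries were fitted together, the 6 unsorted ones together, and all 12 for the difference of null effects, where the filter was 2 libraries. An exact permutation cannot go below p = 0.1 for 3 against 3 or 0.333 for 2 against 2. A library was called male where its Y-linked genes summed above Xist. Low values of unsorted libraries are whole multiples of 1 read for 81.7% to 83.7% of genes (tolerance 0.05, up to 5 reads), which gave the implied depth; counts were not tested. The members and gene lists were chosen with earlier results of these data known. All members are named; of each list, those of smallest p in null G4 against heterozygous crypts (up to 4), further genes that passed, and a fixed set (Psmb8, Psmb9, Psmb10, Irf1, Ciita, Rfx5, Calr, Canx, Pdia3). Not all listed genes of smallest p are named where few passed, and 1 gene is not reported here. Ifng, C1qa, Cd4 and the constitutive subunits were named for their role. The fits were tested on simulated data with known changes: in crypts most large changes were recovered, but in the sorted comparison and the difference of null effects hardly any were, so a count of 0 there does not show an absence of change. Alternatives were another pseudocount, no filter, 2 scalings, no mitochondrial genes in the total, a replicate block, a sex term, fewer groups, and leaving out each library. Applying them to the other pathway lists was decided after seeing the data. Plots used Python 3.11.15, pandas 2.3.3, numpy 2.4.6 and matplotlib 3.10.9.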

Additional observations from a re-analysis of the deposited data

Results flagged for a closer look

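The effect of the null state differed between sorted cells (generation 3) and crypts (generation 4) for Tap1, by -2.61, and for Nlrc5, by -2.20, in a test of the difference itself (limma, adjusted p = 0.0103 for each). In sorted cells both genes lay below every heterozygous value, as did 12.6% of tested genes, and in null G4 crypts both lay above, as did 74.7%. Nlrc5 in sorted cells was below the level at which genes were tested there, and it entered this test only through the generation 4 crypts. The fraction, the generation and any separate normalization of the sets change together here and cannot be told apart.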

How the results depend on the processing

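The rise of class I genes in null G4 crypts kept its sign for all 9 members under every setting run, but not its significance. Of the 7 members that rose against heterozygous crypts, 0 passed without a filter on low values (25639 genes tested) and 0 with the sex term. Leaving out 1 crypt library leaves 1 library in its group, so the calls given for such fits are weak and show only that they changed, as given above. The log2 differences were then 2.04 to 2.27 for Tap1, 1.72 to 1.88 for Nlrc5, 1.35 to 1.56 for Tap2 and 0.52 to 1.01 for H2-T23. Tap1, Tap2 and Nlrc5 passed under all settings but those without a filter (adjusted p = 0.0676 to 0.0952) and with the sex term. Of the 5 members that rose in the crypts labelled reactivated, 0 passed without a filter, 3 with median scaling and 3 without mitochondrial genes. The sex term leaves 1 male library in that arm. Which members passed also changed when 1 library was left out, where Tap1 had 1.97 to 2.36. The difference of null effects, past the threshold for 2 members, passed for 1 with a pseudocount of 0.1, 1 with quantile normalization, 1 without mitochondrial genes, 0 with median scaling and 0 with the sex term. It passed for 5 without sorted null G3 replicate 1, where 212 of 11824 tested genes passed. Without replicate 3 it passed for 6, where 3537 of 11835 tested genes did. Without 1 heterozygous or null G4 crypt library neither call held, as given above.

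Counts over all genes moved more. For null G4 against heterozygous crypts 636 genes passed, and the alternatives gave 21 without a filter, 237 with quantile normalization, 322 with median scaling, 283 without mitochondrial genes, 69 with the sex term, 5804 with only the groups compared, and 181 to 5742 with 1 library left out. The highest counts came without either library labelled reactivated. For reactivated against null G4, where 3 passed, the counts were 0 without a filter, 0 with quantile normalization, 6 with the sex term, 8 with only the groups compared and 4 to 185 (without reactivated replicate 1) on leaving out 1 library. For reactivated against heterozygous crypts, where 146 passed, they were 22 without a filter, 88 with quantile normalization, 94 with median scaling and 124 to 2344 (without reactivated replicate 2). For the difference of null effects, where 36 passed, they were 11 with the smaller pseudocount, 70 without a filter, 16 with median scaling, 20 without mitochondrial genes, 5 with the sex term and 8 to 3537 (without sorted null G3 replicate 3). In the sorted comparison 0 genes passed under all settings run, which says nothing of stability given its low power. The cause of these moves was not tested.

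Signs turned only for differences that had not passed. In sorted cells, removing mitochondrial genes from the total gave 0.073 for H2-K1, 0.096 for H2-D1, 0.066 for H2-T23, 0.0027 for Tap1, 0.42 for Tapbp and 0.21 for Erap1. Median scaling gave 0.0020 for H2-D1, 0.011 for H2-T23, 0.048 for Tap1, 0.37 for Tapbp and 0.16 for Erap1, and quantile normalization 0.041 for Tap1, 0.31 for Tapbp and 0.13 for Erap1. Leaving out 1 library gave -0.029 to 0.28 for B2m and -0.51 to 0.0028 for Erap1. For reactivated against null G4, median scaling gave 0.026 for B2m, 0.13 for H2-K1 and 0.13 for H2-D1, and quantile normalization 0.064 for both H2-K1 and H2-D1. Without mitochondrial genes the values were 0.0032 for H2-K1 and 0.0076 for H2-D1. The sex term gave 0.086 for B2m, 0.17 for H2-K1, 0.16 for H2-D1 and 0.043 for Erap1, and a pseudocount of 0.1 gave -0.0032 for Nlrc5. With 1 library left out the ranges were -0.33 to 0.086 for B2m, -0.20 to 0.17 for H2-K1, -0.18 to 0.16 for H2-D1, -0.10 to 0.24 for H2-T23, -0.18 to 0.21 for Tap1, -0.10 to 0.11 for Tap2, -0.087 to 0.15 for Tapbp, -0.25 to 0.25 for Nlrc5 and -0.55 to 0.043 for Erap1. The difference of null effects was 7.39e-05 for Tapbp with quantile normalization. For Rfx5, null G4 against heterozygous crypts had -0.17 with median scaling and -0.017 with the sex term. Its values for reactivated against heterozygous crypts were -0.0094 with quantile normalization, -0.12 with median scaling, -0.016 with the sex term and -0.016 to 0.19 with 1 library left out.

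Libraries that share a replicate number did not deviate together in every pair: r of their deviations was 0.053, -0.030 and -0.19 in sorted cells and 0.22, -0.069 and -0.12 in crypts, so the numbers are not taken as a pairing. With the replicate block 7 of the 9 members passed in null G4 against heterozygous crypts and 6 in reactivated against heterozygous, and 1 for the difference of null effects. Over all genes the block gave 1317, 264 and 18 in these comparisons, and 9 for reactivated against null G4. Any multiple alignment of reads between class I relatives limits the single heavy chain values. The depth of sorted libraries was not derived here, and low sorted values of Tap2 and Nlrc5 were below the level for testing.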
